A study of Mus musculus with 32 samples.

Results

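Mouse epidermal organoids grown with forskolin and an inhibitor of transforming growth factor beta (TGF-beta) signalling were set against organoids grown with forskolin and fibroblast growth factor 10 (Fgf10). The comparison takes 8 of the 32 libraries of the series, 4 for each medium, chosen by the sample tags alone. All 8 were bulk libraries prepared with CEL-seq2, which reads messenger RNAs at their 3′ ends, from sorted cells of organoids grown from Bl/6 mouse skin, which had been in culture for up to 3 months and passed 7 to 12 times. The labels give day 7 after culture for the inhibitor libraries and day 7 after the last passage for the Fgf10 libraries. They do not give the inhibitor's name or dose, the age or sex of the mice, or whether replicates came from separate cultures or animals, so p-values here measure the spread between these libraries, which may be technical. The inhibitor medium is labelled without an FGF and the Fgf10 medium without an inhibitor. What the inhibitor adds and what the absence of Fgf10 takes away cannot be told apart.

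TGF-beta ligands bind a pair of receptor kinases on the cell surface, which phosphorylate SMAD2 and SMAD3, and these enter the nucleus with SMAD4 and switch on target genes. In epidermal keratinocytes the pathway is known for halting the cell cycle and for raising matrix genes during wound repair. The related bone morphogenetic proteins (BMPs) signal through SMAD1 and SMAD5 and raise the Id genes, whose proteins block basic helix-loop-helix transcription factors. Fgf10 signals through the epithelial form of the receptor Fgfr2, and forskolin, present in both media, raises cyclic AMP by activating adenylyl cyclase.

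The inhibitor libraries held 734041, 1863243, 2337596 and 1622134 counts in replicates 1 to 4, against 1705373, 1489911, 1994447 and 1627984 counts in the Fgf10 libraries. The keratinocyte label held in every library. The 6 keratinocyte markers (Krt5, Krt14, Trp63, Itga6, Cdh1 and Epcam) summed to 22353 to 25449 CPM, the count scaled to library size, in the inhibitor libraries and 30025 to 39150 CPM in the Fgf10 libraries. None of them passed the test in edgeR, while DESeq2 called Krt14 lower with the inhibitor. The 8 fibroblast markers together reached 1.20 to 9.41 CPM in the inhibitor libraries and 0 to 5.17 CPM in the Fgf10 libraries, with Pdgfrb and Lum at 0 throughout. The 8 markers of leukocytes and Langerhans cells summed to 2.37 to 28.1 CPM with the inhibitor and 3.88 to 24.3 CPM with Fgf10, with the Langerhans gene Cd207 at 0. All 5 red blood cell markers were at 0, and the lists for endothelium, melanocytes, Merkel cells, sebocytes and muscle each summed to at most 7.44 CPM in any library.

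Some libraries stood apart. Inhibitor replicate 4 correlated with the other inhibitor libraries at Spearman 0.878 to 0.921 across genes, and with the 4 Fgf10 libraries at 0.901 to 0.932. The libraries also divided by sex. Xist, the RNA that silences an X chromosome in female cells, had 0, 1, 5 and 2 counts in inhibitor replicates 1 to 4, against 31, 27, 101 and 1 counts in Fgf10 replicates 1 to 4. The 4 Y-linked genes Ddx3y, Eif2s3y, Kdm5d and Uty summed to 94, 249, 305 and 242 counts in the inhibitor libraries, against 9, 3, 12 and 233 counts in the Fgf10 libraries. So Fgf10 replicates 1 to 3 carried the transcripts of female cells, while Fgf10 replicate 4 and all the inhibitor libraries carried those of male cells. The noncoding RNA Gt(ROSA)26Sor divided these 8 libraries in the same way, with 0, 0, 0 and 1 counts with the inhibitor and 51, 29, 35 and 2 counts with Fgf10. Its division was less clear in unpassaged libraries. It had 24 counts with forskolin alone, where Xist was present. The unpassaged libraries with Y-linked counts had 17 with Fgf10, 13 with Fgf1, and 5 and 6 with the inhibitor. By Xist and the Y-linked genes, source animal and medium are largely confounded in the 8 libraries, and among libraries with Y-linked counts the Fgf10 side is replicate 4 alone. Results are given for all 8 libraries, and beside them for the libraries with Y-linked counts, where the lone Fgf10 library is assumed to vary like the other early groups.

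**Figure D1:**
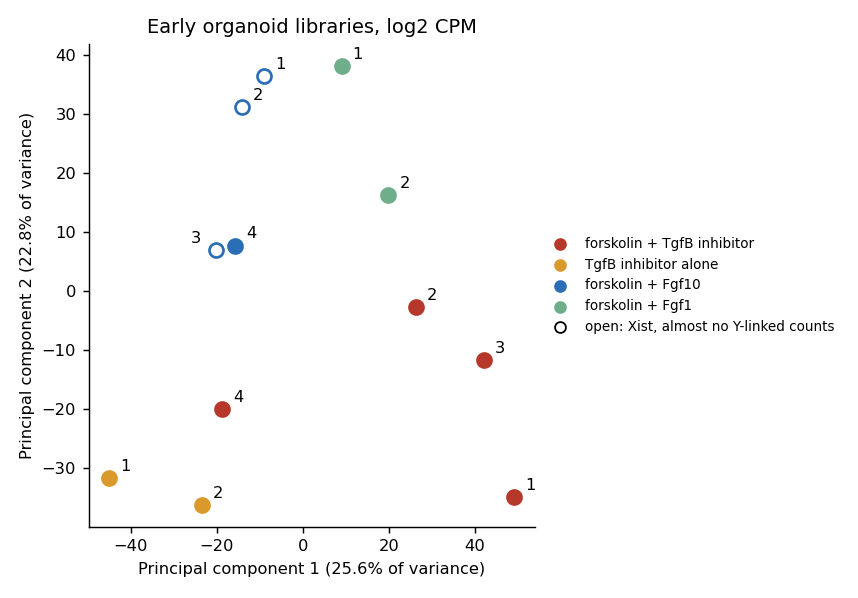
Principal components of log2 CPM over the genes tested in the 12 early organoid libraries, with replicate numbers beside the points; filled points are libraries with Y-linked counts and open points libraries with Xist and almost no Y-linked counts. Inhibitor replicate 4 lies at -18.7 on component 1, beside the Fgf10 libraries at -20.1 to -9.06, and away from inhibitor replicates 1 to 3 at 26.3 to 49.1.

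Of 9184 genes tested with edgeR's quasi-likelihood test over the 12 early libraries, 218 passed an adjusted p of 0.05, which is 2.37% of those tested. With the inhibitor, 111 genes were higher (1.21%) and 107 lower (1.17%). These shares are the background for the counts of called genes in each list over all libraries below. The 4 libraries of each medium did not overlap for 693 genes, 7.55% of those tested, and for 193 of the 218 called. Fgf10 replicate 4 lay outside the range of the inhibitor libraries for 205 of the 218 and inside it for 13. The 218 were called with these same libraries, so this count and the directions kept in the fits below follow largely from that choice. The share over all genes tested was not counted. The count of calls turned on inhibitor replicate 4: without that library 553 genes passed (6.04% of 9162), 242 higher and 311 lower, and all 218 kept their direction. Among libraries with Y-linked counts, 28 genes passed (0.292% of 9604), 6 higher (0.0625%) and 22 lower (0.229%). Of the 218 calls, 211 could be tested there, all 211 had the same direction, 179 of them with a log2 fold change beyond 1, and 21 were called. Of the 60 genes called and named here, 24 lost the call when 1 library was left out: Abca1, Adam8, Axl, Bmp1, Calml3, Col16a1, Crim1, Cxcl1, Dlx5, Fas, Fst, H2-K1, Hoxa9, Hoxc8, Jag1, Perp, Psmb8, S100a4, Serpine2, Spsb1, Stra6, Tgfb3, Trp53inp1 and Wnt5a. Their highest adjusted p with 1 library left out ran from 0.053 (Calml3) to 0.187 (Col16a1), both without inhibitor replicate 3. The other 36 kept it, Tgfbi, Irx4, Apoe and Id2 among them. The 2 early libraries with the inhibitor and no forskolin stood on the same side of the 2 with forskolin and Fgf1 for 37 of the 60, on the opposite side for 8, and overlapped them for 15. These media differ in forskolin as well, and the shares over all genes tested were not counted, so the 37 have no background beside them. In bulk libraries, fewer cells of a kind and less RNA of a gene per cell cannot be told apart.

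**Figure D2:**
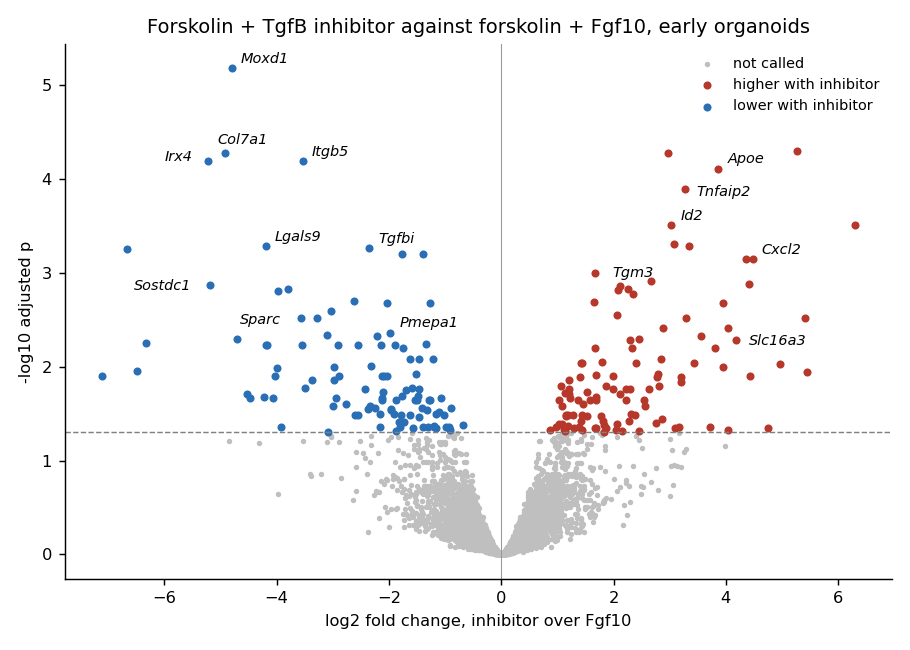
Log2 fold change (inhibitor over Fgf10) against −log10 of the adjusted p for the 9184 genes tested, with the dashed line at an adjusted p of 0.05. The 111 genes called higher and the 107 called lower are coloured, and Moxd1, Col7a1, Irx4 and Itgb5 stand highest among those lower with the inhibitor.

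Tgfbi, Irx4, Apoe and Id2 mark the contrast. Tgfbi, which encodes a secreted matrix protein named for its induction by TGF-beta and is not the inhibitor, lies at chr13:56609523-56639562 (mm10, plus strand). It had 14.2, 17.8, 17.6 and 12.6 CPM with the inhibitor, against 82.0, 90.3, 43.2 and 106 CPM with Fgf10. The libraries did not overlap, and Tgfbi was 5.08-fold lower with the inhibitor (log2 fold change -2.35, SE 0.29, adjusted p = 0.000544). It stayed past the threshold among libraries with Y-linked counts (-2.76, adjusted p = 0.00227). The early libraries grown in other media divided by the inhibitor too: Tgfbi stood at 30.3 and 20.4 CPM with the inhibitor and no forskolin, against 97.3 and 71.3 CPM with forskolin and Fgf1.

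Irx4, an Iroquois homeobox transcription factor gene (chr13:73260479-73269608), was close to silent with the inhibitor, at 0, 1.15, 0.800 and 2.51 CPM, against 34.8, 55.7, 51.1 and 48.5 CPM with Fgf10. Every inhibitor library was below every Fgf10 library, and the fitted difference was 37.4-fold (log2 fold change -5.23, SE 0.48, adjusted p = 6.39e-05). Among libraries with Y-linked counts Irx4 was -5.26 with adjusted p = 0.00798. Irx4 was at 0 in both libraries with the inhibitor and no forskolin and at 14.1 and 4.73 CPM with Fgf1, below its level with Fgf10.

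Apoe, the apolipoprotein that carries cholesterol out of cells (chr7:19696109-19699188), moved the other way. Its level was 486, 581, 525 and 1127 CPM with the inhibitor, against 45.4, 28.3, 31.3 and 81.5 CPM with Fgf10. The lowest inhibitor library was above the highest Fgf10 library, and Apoe was 14.6-fold higher (adjusted p = 7.74e-05). Among libraries with Y-linked counts the difference was 3.06 on the log2 scale, with adjusted p = 0.0791, which misses the threshold. The other early media gave 726 and 511 CPM with the inhibitor and no forskolin, against 39.1 and 24.4 CPM with Fgf1.

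Id2, a BMP target that restrains differentiation through helix-loop-helix partners (chr12:25093799-25097140), had 81.7, 87.6, 78.4 and 31.4 CPM with the inhibitor, against 11.8, 10.2, 6.95 and 5.17 CPM with Fgf10. The groups did not overlap, although inhibitor replicate 4 was the lowest of its group. Id2 was 8.15-fold higher (log2 fold change 3.03, SE 0.35, adjusted p = 0.000307), and among libraries with Y-linked counts 3.73 with adjusted p = 0.0535.

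**Figure D3:**
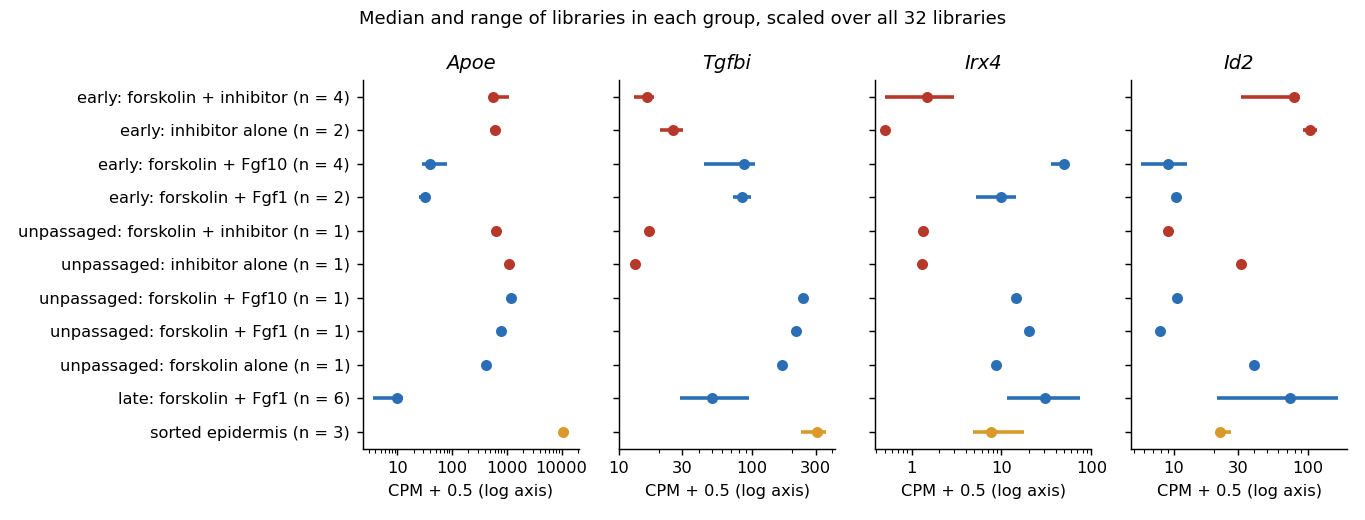
Levels of Apoe, Tgfbi, Irx4 and Id2 in the cultured groups and sorted epidermis, as CPM + 0.5 scaled over all 32 libraries on log axes; points are medians, lines run over all libraries of a group, red marks media with the inhibitor, blue other media and orange sorted epidermis. In early organoids Tgfbi and Irx4 are low and Apoe and Id2 high wherever the inhibitor was present, while unpassaged Apoe is high in all 5 media.

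Scaled over all 32 libraries, these genes did not all keep the pattern before passaging, where each medium has 1 library and no test was run. Tgfbi stood at 16.5 CPM with forskolin and the inhibitor, against 240 CPM with forskolin and Fgf10, and Irx4 at 0.844 CPM with the inhibitor, against 13.9 CPM with Fgf10. Apoe had 645 CPM with the inhibitor and 1197 CPM with Fgf10 in unpassaged organoids, and Id2 had 8.44 CPM with the inhibitor and 9.96 CPM with Fgf10. Apoe and Id2 thus did not show at day 7 of the first culture the direction they had after 7 to 12 passages. Sorted epidermis held 10270 to 13929 CPM of Apoe, above every organoid library, and late organoids in Fgf1 held 3.04 to 12.5 CPM. Those late organoids, grown without the inhibitor, held 20.4 to 167 CPM of Id2, with a median of 72.9 CPM. The median of early organoids with forskolin and the inhibitor was 78.7 CPM, so high Id2 after passaging was not particular to inhibitor media. The lowest late levels of Tgfbi (28.2 CPM) and Irx4 (11.1 CPM) lay above every early library with forskolin and the inhibitor.

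In the TGF-beta pathway, target and ligand genes held lower calls and receptor genes held none. Of 24 listed feedback and direct target genes 17 could be tested, and 2 of them had a positive log2 fold change. Their median was -0.83, beside -0.01 over all genes tested. Of the 17, none was higher and 4 were lower, beside 1.17% of all genes tested. Besides Tgfbi, these were Pmepa1, a membrane protein that restrains SMAD signalling, Nedd9, a scaffold protein of focal adhesions, and Spsb1, an adaptor that marks the type II receptor for degradation. Pmepa1 had 11.8, 30.3, 21.2 and 23.8 CPM with the inhibitor, against 69.6, 127, 52.6 and 104 CPM with Fgf10. Its libraries did not overlap (log2 fold change -1.97, SE 0.32, adjusted p = 0.00431), nor did those of Nedd9, at 2.40 to 4.73 CPM with the inhibitor and 13.6 to 18.8 CPM with Fgf10 (-2.03, SE 0.30, adjusted p = 0.00207). Spsb1 was at 1.18 to 6.00 CPM with the inhibitor and 7.94 to 29.1 CPM with Fgf10 (-1.96, SE 0.44, adjusted p = 0.0282). Among libraries with Y-linked counts Pmepa1 (-2.22, adjusted p = 0.0434) and Spsb1 (-2.80, adjusted p = 0.0353) passed and Nedd9 did not (-2.0, adjusted p = 0.162).

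Other well-known targets gave no call. Smad7, the inhibitory SMAD, was at 1.18 to 4.00 CPM with the inhibitor and 1.94 to 7.08 CPM with Fgf10 (-1.23, SE 0.62, adjusted p = 0.408). Fgf10 replicate 4, at 1.94 CPM, lay inside the inhibitor range, and among libraries with Y-linked counts the sign turned (0.30, SE 1.19, adjusted p = 0.999). Skil, a SMAD co-repressor, had 4.73 to 10.4 CPM with the inhibitor against 10.9 to 15.7 CPM with Fgf10 without a call (-0.83, SE 0.32, adjusted p = 0.237). Cdkn1a, the cyclin-dependent kinase inhibitor p21 induced by TGF-beta, stood at 606, 956, 707 and 857 CPM with the inhibitor, against 1060, 1399, 1153 and 1102 CPM with Fgf10, without overlap or a call (-0.59, SE 0.21, adjusted p = 0.185).

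Upstream, 2 of 9 testable ligand and activator genes were lower, beside 1.17% of all genes tested, and none was higher. Thbs1, the thrombospondin that frees latent TGF-beta, had 0, 0, 1.20 and 0.628 CPM with the inhibitor, against 4.13, 11.8, 18.4 and 12.9 CPM with Fgf10 (adjusted p = 0.00581). Thbs1 missed the threshold among libraries with Y-linked counts (-4.31, adjusted p = 0.0882) and in the fit of all 18 passaged libraries. Tgfb3 had 2 counts in all over the inhibitor libraries and 52 over the Fgf10 libraries, a depth-scaled ratio of 0.0400 with an exact 95% counting interval of 0.00472 to 0.152 (adjusted p = 0.0216; with Y-linked counts 0.0137). Both are rare transcripts, and the interval covers counting error only. Of the 9 testable receptor and SMAD genes none passed in edgeR or DESeq2, and none had an unadjusted p under 0.05: Tgfbr1 was at 2.86 to 5.92 CPM with the inhibitor and 3.47 to 8.63 CPM with Fgf10, Tgfbr2 at 16.3 to 36.7 CPM with the inhibitor and 14.4 to 38.4 CPM with Fgf10, and Smad3 at 15.7 to 49.7 CPM with the inhibitor and 20.1 to 27.5 CPM with Fgf10. Inhbb, the activin beta B subunit, stood at 1.18, 2.29, 1.60 and 3.77 CPM with the inhibitor, against 12.4, 5.49, 2.98 and 48.5 CPM with Fgf10; it missed the threshold over all libraries (-2.89, adjusted p = 0.064) and passed among those with Y-linked counts (-4.39, adjusted p = 0.000665).

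**Figure D4:**
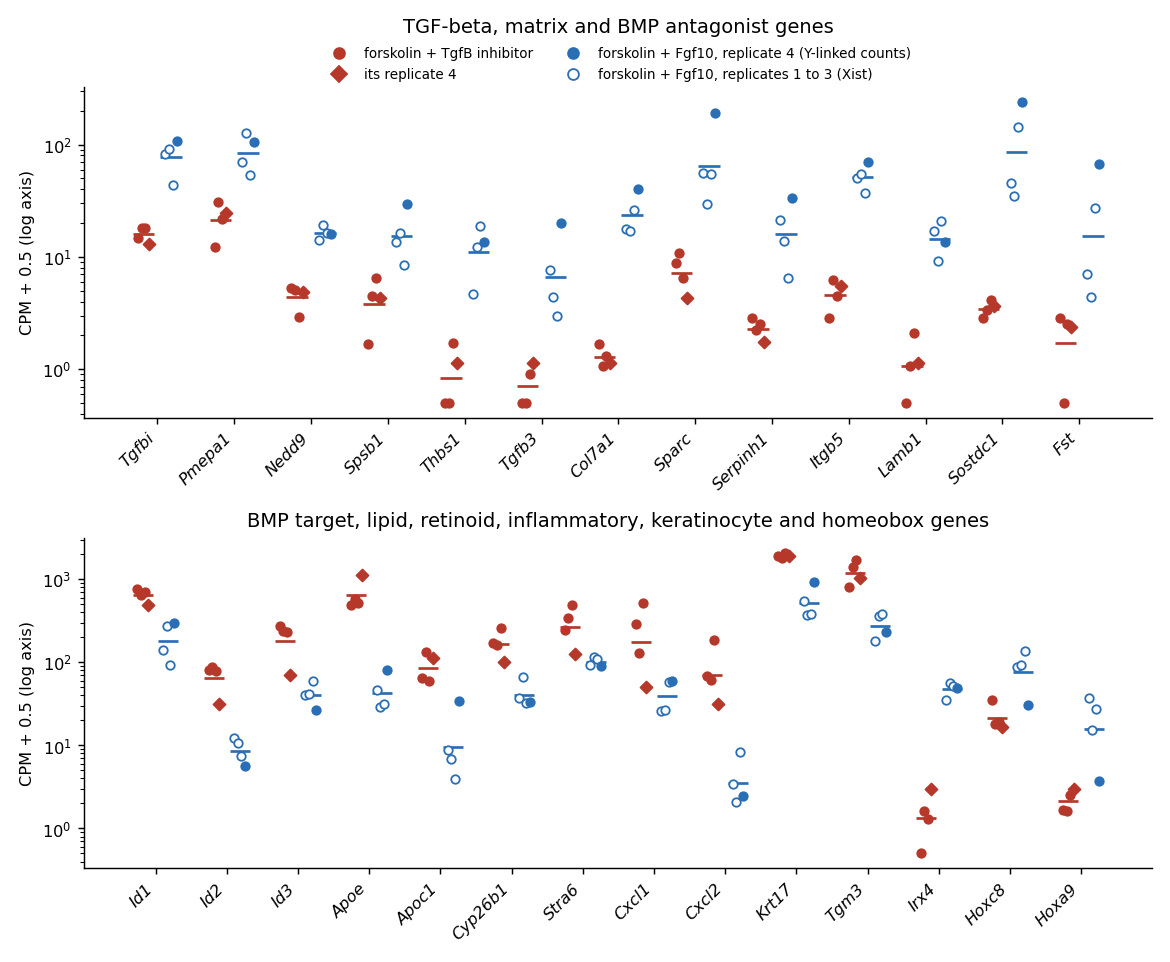
CPM + 0.5 on log axes in each of the 8 libraries, red for the inhibitor (diamond, replicate 4) and blue for Fgf10 (filled, replicate 4 with Y-linked counts; open, replicates 1 to 3 with Xist); bars are geometric means of 4. The red points of Tgfbi, Col7a1, Itgb5 and Sostdc1 all lie below the blue ones, and filled blue points of Hoxc8 and Hoxa9 lie nearer the red points than the open ones do.

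Matrix and adhesion genes held several of the steepest differences. Of 17 testable matrix and crosslinking genes, 3 were lower, beside 1.17% of all genes tested, and none was higher. In this list 3 had a positive log2 fold change, and the median was -0.78, beside -0.01 over all genes tested. Among libraries with Y-linked counts the median was -0.67, and Col8a1, also in the list, was higher with the inhibitor. Col7a1, the collagen of the fibrils that anchor epidermis to dermis (chr9:108953586-108984875), had 1.18, 0.573, 0.800 and 0.628 CPM with the inhibitor, against 17.1, 16.5, 25.8 and 40.1 CPM with Fgf10. It was near 0 in every inhibitor library and 30.4-fold lower by the fit (log2 fold change -4.93, SE 0.45, adjusted p = 5.22e-05; with Y-linked counts -5.62, adjusted p = 0.000192). The other early media gave 2.75 and 1.64 CPM with the inhibitor and no forskolin, against 36.7 and 31.5 CPM with Fgf1.

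Sparc, a secreted collagen-binding glycoprotein (chr11:55394500-55423183), was at 8.29, 10.3, 6.00 and 3.77 CPM with the inhibitor, against 55.5, 29.0, 54.6 and 191 CPM with Fgf10. The groups did not overlap, though Fgf10 replicate 4 was far above the rest (-3.56, SE 0.56, adjusted p = 0.00302; with Y-linked counts -4.77, adjusted p = 0.000349). Serpinh1, the collagen chaperone HSP47, which the list does not hold, had 2.37, 1.72, 2.00 and 1.26 CPM with the inhibitor, against 20.7, 13.3, 5.96 and 33.0 CPM with Fgf10 (-3.28, SE 0.51, adjusted p = 0.00302; with Y-linked counts -4.15, adjusted p = 0.000441). Serpinh1 was not low wherever the inhibitor was present: without forskolin it stood at 36.7 and 30.3 CPM. Col16a1, a minor fibril-associated collagen, was at 5.60 to 11.9 CPM with the inhibitor and 13.6 to 43.7 CPM with Fgf10, with a call (-1.87, adjusted p = 0.0483) that was lost among libraries with Y-linked counts (-1.22, adjusted p = 0.858).

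Among 19 testable laminin, hemidesmosome and integrin genes, 2 were lower and 13 had a positive log2 fold change (median 0.23). Itgb5, the integrin beta chain that pairs with alpha V to bind vitronectin, had 2.37, 5.73, 4.00 and 5.02 CPM with the inhibitor, against 50.2, 54.2, 36.2 and 69.2 CPM with Fgf10 (-3.53, SE 0.34, adjusted p = 6.39e-05; with Y-linked counts -3.94, adjusted p = 0.00127). Lamb1, a laminin beta chain, had 0 to 1.60 CPM with the inhibitor, against 8.63 to 20.3 CPM with Fgf10 (adjusted p = 0.00157; with Y-linked counts 0.109). The hemidesmosome genes Col17a1 and Itgb4 were not called. Col17a1 was at 303 to 552 CPM with the inhibitor and 237 to 597 CPM with Fgf10 (-0.13, SE 0.30), and Itgb4 at 86.6 to 194 CPM with the inhibitor and 96.5 to 131 CPM with Fgf10 (0.41, SE 0.28).

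Sequence before 3 of the lower genes and Id2 is shown because these genes carry the contrast and because SMAD proteins bind short, known motifs. Each line gives the 250 bases before the gene start of RefSeq (GRCm38.p6), in the direction of the gene. The gene coordinates given elsewhere are those of GENCODE vM21 (mm10), which span all annotated transcripts, so that its starts of Tgfbi, Sparc and Id2 differ from those of RefSeq and the windows of Sparc and Id2 lie inside the GENCODE gene. Capitals mark the SMAD3 and SMAD4 motif CAGAC, also as its reverse complement GTCTG, and the palindromic GC-rich motif GGCGCC, which SMAD1 and SMAD5 can bind; the motifs do not overlap each other.
Tgfbi, chr13:56609336-56609585, plus strand: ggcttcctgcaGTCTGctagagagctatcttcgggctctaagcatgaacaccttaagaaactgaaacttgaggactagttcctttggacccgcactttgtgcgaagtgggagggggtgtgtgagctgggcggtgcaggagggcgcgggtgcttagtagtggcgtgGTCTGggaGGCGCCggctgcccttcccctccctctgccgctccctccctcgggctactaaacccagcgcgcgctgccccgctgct
Col7a1, chr9:108953336-108953585, plus strand: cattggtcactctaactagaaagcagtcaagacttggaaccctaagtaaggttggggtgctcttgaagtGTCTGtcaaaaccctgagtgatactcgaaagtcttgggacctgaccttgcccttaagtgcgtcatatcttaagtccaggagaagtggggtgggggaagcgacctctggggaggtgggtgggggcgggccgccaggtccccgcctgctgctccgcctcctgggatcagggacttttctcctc
Sparc, chr11:55420081-55420330, minus strand: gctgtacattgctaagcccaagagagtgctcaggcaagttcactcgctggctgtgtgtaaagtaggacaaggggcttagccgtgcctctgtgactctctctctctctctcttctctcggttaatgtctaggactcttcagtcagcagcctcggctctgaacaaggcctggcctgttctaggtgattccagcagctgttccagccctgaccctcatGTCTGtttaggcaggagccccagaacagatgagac
Id2, chr12:25096093-25096342, minus strand: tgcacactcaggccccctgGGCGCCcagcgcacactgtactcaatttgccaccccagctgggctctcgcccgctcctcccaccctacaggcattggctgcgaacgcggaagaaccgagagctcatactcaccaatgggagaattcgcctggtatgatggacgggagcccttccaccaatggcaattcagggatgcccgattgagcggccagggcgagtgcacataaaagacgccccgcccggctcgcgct
CAGAC stands 2 times before Tgfbi, 1 time before Col7a1 and 1 time before Sparc, and is not in the Id2 window, while GGCGCC stands 1 time each before Tgfbi and Id2. Such matches are common: of 32851 RefSeq promoter windows of this length, 42.2% held CAGAC on either strand, as did 43% of the windows of genes called lower, 36.5% of those of genes called higher and 39.5% of those of all genes tested. GGCGCC was in 15.1% of the windows of genes called lower, in 15.1% of those called higher and in 17.3% of those tested.

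Among BMP genes, 2 antagonists were lower and 3 Id genes higher. Of 6 testable ligands and antagonists, 3 were lower, beside 1.17% of all genes tested. Sostdc1, a secreted antagonist of BMP and Wnt signalling, had 2.37, 2.86, 3.60 and 3.14 CPM with the inhibitor, against 45.4, 34.5, 144 and 237 CPM with Fgf10. The inhibitor libraries were uniform and the Fgf10 libraries spread widely above them (-5.19, SE 0.72, adjusted p = 0.00133; with Y-linked counts -6.23, adjusted p = 0.000485). Fst, follistatin, which traps activins and some BMPs, was at 2.37, 0, 2.00 and 1.88 CPM with the inhibitor, against 6.49, 3.92, 26.8 and 67.3 CPM with Fgf10 (-4.07, SE 0.87, adjusted p = 0.0216; with Y-linked counts -5.43, adjusted p = 0.000665). Bmp1 is in this list by name, although it is a procollagen protease and no BMP ligand; it had 1.15 to 3.55 CPM with the inhibitor, against 6.28 to 13.4 CPM with Fgf10 (adjusted p = 0.0225; with Y-linked counts 0.529). The ligand genes gave values without a call: Bmp2 at 48.7 to 67.6 CPM with the inhibitor and 12.9 to 46.2 CPM with Fgf10 (1.10, adjusted p = 0.159), and Bmp7 at 29.6 to 32 CPM with the inhibitor and 45.4 to 69.1 CPM with Fgf10 (-0.82, adjusted p = 0.0518).

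Of 8 testable BMP targets, none was lower and 3 were higher (Id1, Id2 and Id3), beside 1.21% of all genes tested. The median of the list was 0.13 over all libraries and -0.43 without inhibitor replicate 4, where Id4 was also called, lower (-1.88, adjusted p = 0.0335, with 4.73, 2.29, 3.60 and 43.3 CPM with the inhibitor, against 7.08, 12.6, 20.3 and 9.70 CPM with Fgf10). Id3 had 276, 239, 234 and 70.9 CPM with the inhibitor, against 39.5, 40.8, 59.6 and 26.5 CPM with Fgf10 (2.29, SE 0.38, adjusted p = 0.00516). Id1 had 767, 647, 710 and 487 CPM with the inhibitor, against 141, 275, 93.8 and 300 CPM with Fgf10 (1.69, SE 0.32, adjusted p = 0.0123). Neither gene's libraries overlapped, and inhibitor replicate 4 was again the lowest of its group for both. Among libraries with Y-linked counts Id3 was 2.94 (adjusted p = 0.235) and Id1 1.12 (adjusted p = 0.574), so neither call held without Fgf10 replicates 1 to 3. Of the 5 testable BMP receptors and SMADs none passed in edgeR or DESeq2, and none had an unadjusted p under 0.05.

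Genes of FGF signalling held no call. None of 6 testable FGF receptors and ligands and none of 13 ERK feedback genes passed in edgeR or DESeq2, where 2.37% of all genes passed in edgeR. At an unadjusted p under 0.05 there were 2 of the 6 and 5 of the 13, beside 13.6% of all genes. Fgfr2, whose epithelial form binds Fgf10, was at 17.8 to 30.8 CPM with the inhibitor and 34.8 to 41.2 CPM with Fgf10 (-0.77, SE 0.29, adjusted p = 0.218). Dusp6, a phosphatase of ERK raised by FGF signalling, was at 40.2 to 64.0 CPM with the inhibitor and 28.3 to 88.3 CPM with Fgf10 (-0.27, SE 0.33, adjusted p = 0.796). Etv5, an ETS factor downstream of FGF receptors, had 4.73, 1.15, 1.60 and 3.14 CPM with the inhibitor, against 5.31, 5.49, 8.93 and 11.6 CPM with Fgf10; its libraries did not overlap but the gene was not called (-1.72, SE 0.57, adjusted p = 0.158). Etv4 overlapped (0.54, SE 0.51, adjusted p = 0.711), and Spry4 was too low to test. Of 10 EGF receptor genes and ligands, and of 8 cyclic AMP targets, none passed in edgeR or DESeq2 either, with 1 and 0 at an unadjusted p under 0.05.

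Moxd1, a monooxygenase-like protein, had the lowest p of the table: 1.18, 2.29, 2.80 and 1.26 CPM with the inhibitor, against 46.0, 40.8, 68.0 and 80.2 CPM with Fgf10 (-4.79, SE 0.34, adjusted p = 6.57e-06; with Y-linked counts -5.24, adjusted p = 0.000122). Lgals9, a galectin, had 8.29 to 11.5 CPM with the inhibitor and 54.9 to 330 CPM with Fgf10 (-4.19, adjusted p = 0.000514). Emb, embigin, a chaperone of lactate transporters, had 2.29 to 7.53 CPM with the inhibitor, against 20.4 to 82.1 CPM with Fgf10 (-2.90, adjusted p = 0.00582). Lgals9 and Emb were also lower among libraries with Y-linked counts (-5.02 and -4.02). With the inhibitor and no forskolin Emb stood at 19.3 and 30.3 CPM, in or near the Fgf10 range, against 48.4 and 59.1 CPM with Fgf1. Gas1, a membrane protein that binds hedgehog ligands, had 17.8 to 36.4 CPM with the inhibitor and 97.8 to 217 CPM with Fgf10 (-2.55, adjusted p = 0.00582; with Y-linked counts 0.166). With the inhibitor and no forskolin Gas1 stood at 127 and 64.6 CPM, against 200 and 45.3 CPM with Fgf1. Serpine2, protease nexin 1, was at 1.15 to 3.77 CPM with the inhibitor, against 4.71 to 23.9 CPM with Fgf10 (-2.60, adjusted p = 0.0325). Among libraries with Y-linked counts Serpine2 was -3.67.

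Apoc1, another apolipoprotein gene beside Apoe on chromosome 7 (chr7:19689481-19692660), had 63.9, 133, 58.4 and 112 CPM with the inhibitor, against 8.26, 6.28, 3.47 and 33.6 CPM with Fgf10 (2.84, SE 0.51, adjusted p = 0.00827). Its Fgf10 replicate 4 was the highest of that group, and among libraries with Y-linked counts the difference was 1.44 (adjusted p = 0.574). In the list of 16 testable lipoprotein and LXR target genes these 2 were higher and 1 was lower: Abca1, the cholesterol exporter that loads apolipoproteins, with 1.26 to 5.92 CPM with the inhibitor, against 4.47 to 18.8 CPM with Fgf10 (-2.37, SE 0.53, adjusted p = 0.0281; with Y-linked counts 0.161). The groups of Abca1 overlapped. None of 21 cholesterol synthesis genes passed in edgeR or DESeq2 (1 at an unadjusted p under 0.05; median 0.01), with Hmgcs1 at 324 to 399 CPM with the inhibitor and 345 to 592 CPM with Fgf10.

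Retinoid genes, which set the level of retinoic acid, held higher calls on Cyp26b1 and Stra6. Cyp26b1, which degrades retinoic acid, had 172, 163, 258 and 100 CPM with the inhibitor, against 36.6, 66.7, 31.8 and 33.0 CPM with Fgf10 (2.06, SE 0.32, adjusted p = 0.00282). Stra6, the retinol uptake receptor, had 249, 339, 497 and 125 CPM with the inhibitor, against 91.5, 117, 108 and 89.3 CPM with Fgf10 (1.58, SE 0.34, adjusted p = 0.0225). Neither gene's libraries overlapped, and both missed the threshold among libraries with Y-linked counts, at adjusted p = 0.161 and 0.622. With the inhibitor and no forskolin Stra6 was at 40.3 and 80.1 CPM, against 238 and 186 CPM with Fgf1, the other way round.

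Inflammatory genes of cultured and wounded keratinocytes were higher in part. Of 21 testable genes of that list, 3 were higher and none lower, and the median was -0.20. The neutrophil chemokine Cxcl2 had 67.5, 61.3, 185 and 30.7 CPM with the inhibitor, against 2.95, 1.57, 7.94 and 1.94 CPM with Fgf10, with no overlap (4.48, SE 0.58, adjusted p = 0.000711; with Y-linked counts 5.44, adjusted p = 0.14). Its level with the inhibitor and no forskolin was 4.58 and 2.45 CPM, near that with Fgf10. Cxcl1, its close relative, had 291, 128, 517 and 49.6 CPM with the inhibitor, against 25.4, 25.9, 57.6 and 58.9 CPM with Fgf10, which overlap through inhibitor replicate 4 (2.55, adjusted p = 0.0225; with Y-linked counts 0.81). With the inhibitor and no forskolin Cxcl1 was at 33.9 and 50.7 CPM, against 118 and 85.8 CPM with Fgf1. Krt17, a keratin of activated keratinocytes, had 1920, 1823, 2085 and 1915 CPM with the inhibitor, against 554, 370, 384 and 921 CPM with Fgf10 (1.80, SE 0.33, adjusted p = 0.00893; with Y-linked counts 1.07, adjusted p = 0.751). The other activation keratins had no call, with Krt6a at 6041 to 11070 CPM with the inhibitor, against 6664 to 14757 CPM with Fgf10, and Krt16 at 5200 to 13579 CPM with the inhibitor, against 7759 to 14686 CPM with Fgf10.

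Tnfaip2, a gene induced by tumour necrosis factor, was among the few higher genes that also passed with Y-linked counts only. Its values were 130, 132, 155 and 64.0 CPM with the inhibitor, against 17.7, 12.6, 12.4 and 6.47 CPM with Fgf10 (3.28, SE 0.34, adjusted p = 0.000127). Among libraries with Y-linked counts Tnfaip2 was 4.20. The other early media overlapped, at 33.0 and 44.1 CPM with the inhibitor and no forskolin and 75.1 and 42.9 CPM with Fgf1. C3, the central complement protein, had 8.16 to 36.0 CPM with the inhibitor and 0.785 to 4.13 CPM with Fgf10 (3.28, SE 0.51, adjusted p = 0.00302). Among libraries with Y-linked counts C3 was 3.67 and missed the threshold. It overlapped between the other early media, at 1.83 and 5.72 CPM with the inhibitor and no forskolin and 4.04 and 4.73 CPM with Fgf1. Pglyrp2, which cleaves bacterial peptidoglycan, had 20.7 to 98 CPM with the inhibitor, against 3.47 to 8.26 CPM with Fgf10 (3.55, adjusted p = 0.00466; with Y-linked counts 0.442). All 7 testable genes of MHC class I presentation had a positive log2 fold change (median 0.86), and 1 was called: H2-K1, at 160 to 235 CPM with the inhibitor, against 60.8 to 112 CPM with Fgf10 (1.20, adjusted p = 0.0174; with Y-linked counts 0.276), whose reads may be shared with near-identical family members. Psmb8, an immunoproteasome subunit, was the 1 call among 7 interferon response genes, with 4.39 to 16.0 CPM with the inhibitor, against 0 to 3.23 CPM with Fgf10 (2.76, adjusted p = 0.0393; with Y-linked counts 1.84, adjusted p = 0.865).

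Slc16a3, the lactate exporter MCT4, had 61.5, 99.6, 106 and 21.3 CPM with the inhibitor, against 10, 0.785, 2.48 and 1.94 CPM with Fgf10 (4.18, SE 0.70, adjusted p = 0.00516). Dio2, which activates thyroid hormone, had 40.1 to 56.8 CPM with the inhibitor, against 1.77 to 10.3 CPM with Fgf10 (3.07, SE 0.37, adjusted p = 0.000487), and Odc1, the first enzyme of polyamine synthesis, 74.0 to 318 CPM with the inhibitor, against 24.8 to 49.2 CPM with Fgf10 (2.32, adjusted p = 0.00635). The serotonin transporter gene Slc6a4 had 58.0 to 166 CPM with the inhibitor, against 9.43 to 37.5 CPM with Fgf10 (2.45, adjusted p = 0.00509). None of these 4 passed among libraries with Y-linked counts (adjusted p = 0.291, 0.142, 0.634 and 0.532, in the order given), and Slc16a3 stood at 5.50 and 37.6 CPM with the inhibitor and no forskolin, against 104 and 43.3 CPM with Fgf1. A transcript annotated as the olfactory receptor Olfr1033 had 68.4 to 199 CPM with the inhibitor, against 8.41 to 29.0 CPM with Fgf10 and passed in both fits (2.67, adjusted p = 0.00122; with Y-linked counts 4.00, adjusted p = 0.0263). With the inhibitor and no forskolin Olfr1033 stood at 5.50 and 4.91 CPM, below every Fgf10 library, against 39.6 and 37.4 CPM with Fgf1. None of 20 glycolysis and hypoxia genes passed in edgeR or DESeq2 (1 at an unadjusted p under 0.05).

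The calls on differentiation genes turned on inhibitor replicate 4. Krt10, the first keratin of cells leaving the basal layer, had 278, 440, 175 and 6150 CPM with the inhibitor, against 6478, 4240, 5935 and 4144 CPM with Fgf10, and Lor, loricrin of the cornified envelope, had 296, 429, 362 and 6229 CPM with the inhibitor, against 3281, 4256, 7614 and 4893 CPM with Fgf10. Inhibitor replicates 1 to 3 were thus far below every Fgf10 library while replicate 4 was among or near the highest. Neither gene was called over all libraries (adjusted p = 0.482 and 0.464), and both were without that replicate (-4.13, adjusted p = 0.000348, and -3.79, adjusted p = 4.41e-05). Low levels were not seen wherever the inhibitor was present. Without forskolin, Krt10 was at 8431 and 4055 CPM with the inhibitor, against 2880 and 497 CPM with forskolin and Fgf1. Lor was at 12029 and 4910 CPM with the inhibitor and no forskolin, against 1845 and 1171 CPM with Fgf1.

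The 14 testable spinous genes held 1 lower call over all libraries, Calml3, and 6 lower without inhibitor replicate 4 (Krt1, Krt10, Dsc1, Krtdap, Calml3 and Mt4), beside 3.39% of all genes lower there. Calml3, a calmodulin-like protein of differentiating epithelium, had 16.6, 54.4, 38.0 and 181 CPM with the inhibitor, against 634, 510, 546 and 483 CPM with Fgf10 (-2.89, SE 0.56, adjusted p = 0.0125; with Y-linked counts 0.399). Of 32 testable cornified envelope and granular layer genes, 1 was higher and 1 lower over all libraries, and 1 higher and 14 lower without that replicate. The lower gene, Sprr2b, has near-identical relatives that may share its reads; it had 2.37 to 8.16 CPM with the inhibitor, against 23.3 to 136 CPM with Fgf10 (-3.55, adjusted p = 0.00582; with Y-linked counts -1.84, adjusted p = 0.574). Prr9, a proline-rich gene of the same chromosome 3 cluster, had 4.58 to 9.20 CPM with the inhibitor, against 23.3 to 192 CPM with Fgf10 (-3.80, SE 0.54, adjusted p = 0.00148; with Y-linked counts -1.71, adjusted p = 0.291).

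The higher gene, Tgm3, a transglutaminase that crosslinks the envelope, went against that direction: 807, 1412, 1728 and 1030 CPM with the inhibitor, against 179, 362, 379 and 230 CPM with Fgf10 (2.11, SE 0.29, adjusted p = 0.00137; with Y-linked counts 0.106). Its groups did not overlap, replicate 4 included. The whole list had a median of -0.71, beside -0.01 over all genes.

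**Figure D5:**
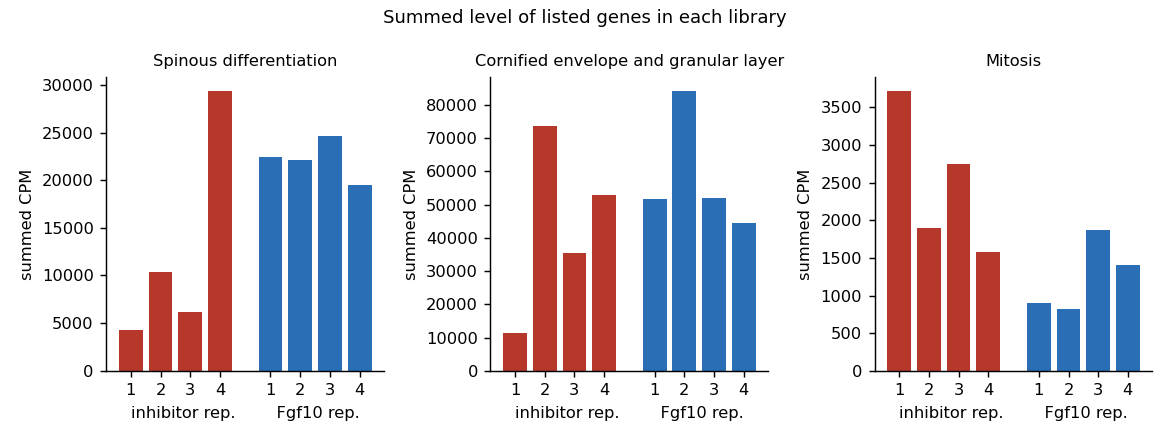
Summed CPM of the spinous, cornified and mitosis gene lists in each library, inhibitor replicates 1 to 4 in red and Fgf10 replicates 1 to 4 in blue, bars from 0. The spinous sum of inhibitor replicate 4 is 29343 CPM, beside 4329 to 10368 CPM in inhibitor replicates 1 to 3, against 19446 to 24586 CPM with Fgf10.

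Mitosis genes leaned the other way without a call. All 25 testable members had a positive log2 fold change, with a median of 0.98, and none passed in edgeR. There 19 had an unadjusted p under 0.05, beside 13.6% of all genes, and DESeq2 called 6. The summed level of the list was 3717, 1893, 2750 and 1574 CPM with the inhibitor, against 896, 825, 1865 and 1412 CPM with Fgf10, so the groups overlapped. The sums also overlapped between the other early media, at 1588 and 2246 CPM with the inhibitor and no forskolin and 1378 and 2497 CPM with Fgf1. Mki67, the proliferation antigen Ki-67, had 147, 97.3, 139 and 79.7 CPM with the inhibitor and 14.8, 34.5, 90.3 and 56.9 CPM with Fgf10 (1.22, SE 0.47, adjusted p = 0.241). Without inhibitor replicate 4, 8 mitosis genes passed as higher (among them Aurka and Ccnb2), beside 2.64% of all genes. Of 24 DNA replication genes none passed in edgeR with or without it (4 at an unadjusted p under 0.05 over all libraries, 0 called by DESeq2), and Cdkn2a and Cdkn2b, whose proteins p16 and p15 hold the cell cycle, had no call (-0.57, adjusted p = 0.422, and -0.94, adjusted p = 0.0954).

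Basal genes held few calls. Krt5, the basal keratin, had 10573 to 12582 CPM with the inhibitor and 11564 to 14920 CPM with Fgf10 (-0.22, SE 0.21, adjusted p = 0.709), and Trp63, the master regulator of stratified epithelium, 26.4 to 53.8 CPM with the inhibitor and 27.8 to 65.5 CPM with Fgf10 (-0.05, SE 0.38, adjusted p = 0.982). Krt14 did not overlap, with 10163 to 13343 CPM with the inhibitor, against 15010 to 23499 CPM with Fgf10, but missed the threshold in edgeR (-0.86, SE 0.22, adjusted p = 0.0557). DESeq2 called it lower. Of 16 testable basal genes only Krt17 was higher and Perp lower in edgeR. Perp, a desmosomal target of p53 and p63, had 638 to 1245 CPM with the inhibitor, against 1554 to 2902 CPM with Fgf10 (-1.16, adjusted p = 0.0453; with Y-linked counts -0.69, adjusted p = 0.912).

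Of the 18 testable homeobox genes none was higher and 4 were lower (Irx4, Dlx5, Hoxa9 and Hoxc8), beside 1.17% of all genes tested. Hoxc8 had 34.3, 17.8, 18.8 and 16.3 CPM with the inhibitor, against 87.3, 91.8, 136 and 30.4 CPM with Fgf10, and Hoxa9 had 1.18, 1.15, 2.00 and 2.51 CPM with the inhibitor, against 37.2, 14.9, 26.8 and 3.23 CPM with Fgf10. In both, Fgf10 replicate 4 was the lowest Fgf10 library and, for Hoxc8, lay within the inhibitor range. The other early media ran the other way for Hoxc8, at 286 and 201 CPM with the inhibitor and no forskolin, against 32.3 and 18.9 CPM with Fgf1, and Hoxa9 was at 0 in all 4 of those libraries. Hoxc8 was called over all libraries (-2.04, adjusted p = 0.0124) and was -0.53 with adjusted p = 0.964 among those with Y-linked counts, where Hoxa9 was too low to test. Dlx5 gave -1.54 (adjusted p = 0.0224) and -0.66 (adjusted p = 0.954). Other Iroquois genes were not called: Irx2 was at 30.9 to 46.2 CPM with the inhibitor and 22.8 to 96.4 CPM with Fgf10, Irx3 at 5.73 to 18.2 CPM with the inhibitor and 10.2 to 29.8 CPM with Fgf10, and Irx5 at 102 to 109 CPM with the inhibitor and 136 to 176 CPM with Fgf10.

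Remaining lists held few calls. Wnt5a, a noncanonical Wnt ligand, was the 1 lower gene of 10 Wnt genes (-1.42, adjusted p = 0.0272; with Y-linked counts -0.82, adjusted p = 0.885), and Jag1, a Notch ligand, of 8 Notch genes (-1.19, adjusted p = 0.0435; with Y-linked counts 0.713). Crim1 and Axl were the 2 higher of 7 YAP targets (1.53, adjusted p = 0.0331, and 1.12, adjusted p = 0.0436), both lost among libraries with Y-linked counts (0.402 and 0.813). S100a4 was higher (2.30, adjusted p = 0.0173) and Cnn3, a calponin, lower (-1.63, adjusted p = 0.00827) among 11 mesenchymal and cytoskeletal genes, with 0.317 and 0.481 among libraries with Y-linked counts. Fas, a death receptor, was higher and Trp53inp1, beside Perp, lower among 18 cell cycle inhibitor and p53 genes (2.22, adjusted p = 0.0171, and -1.16, adjusted p = 0.0317; with Y-linked counts 0.653 and 0.725). Among 11 protease genes Serpine2 was lower and the sheddase Adam8 higher (1.67, adjusted p = 0.0447; with Y-linked counts 0.502). None of 13 NRF2 targets and none of 6 hair matrix and shaft genes passed in edgeR or DESeq2, with 1 of each at an unadjusted p under 0.05.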

How the data were processed

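The deposited files hold, for each of 32 libraries, whole-number counts per gene symbol made by the authors (per the file headers and values); the submitters' processing notes name the aligner BWA 0.6.2-r126 and the build mm10. Every deposited value was checked to be a whole number. For the counting program, annotation, molecular identifiers and strand setting: not given in the sources used. A gene missing from a file was counted as 0 and spike-in rows were left out.

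Counts were scaled by TMM and tested with edgeR 4.0.16 (R 4.3.3; quasi-likelihood test, filterByExpr with a minimum count of 10 and minimum total of 15, Benjamini-Hochberg adjustment at 0.05) on the 12 early libraries: 4 with forskolin and inhibitor, 4 with forskolin and Fgf10, 2 with inhibitor alone and 2 with forskolin and Fgf1, which share the estimate of spread. The contrast is inhibitor minus Fgf10. The SE is the absolute log2 fold change over the square root of F. CPM values use the same scaling; those of other groups were scaled over all 32 libraries. Totals of 734041 to 2337596 counts limit genes under a few CPM. The test was checked on simulated counts with independent libraries. These held no difference of sex or source table and no outlying library, so the check does not cover such features.

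Named genes were the 4 markers, the 12 largest called changes in each direction without overlap and at or above median level (predicted genes left out), up to 4 called genes per list by p, and 17 fixed genes; Inhbb, list members given by range and genes under other observations were chosen after their values were seen. The comparison, the 45 gene lists (697 entries) and the rules were chosen with earlier results of these data known. Lists are described by counts and medians, with no test. Replicate numbers did not pair the samples: deviations of same-numbered libraries correlated at -0.002, 0.289, -0.076 and 0.089 across genes. Replicates differed by more than sampling noise (chi-square per degree of freedom 8.55 to 31.7). The alternatives were other scalings and filters, DESeq2 1.42.0, other sets of libraries, thinning, a replicate block, source table (libraries with the same gene list) and leaving out each replicate; the fit on the 9 early libraries with Y-linked counts was added after seeing the data. Xist and the Y-linked genes were used only to tell the sex of the cells. A few results of the named-gene rule and the lists are not reported here.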

Additional observations from a re-analysis of the deposited data

Results flagged for a closer look

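Among 150 groups of 4 libraries (75 named genes in each medium), 17 had a highest or lowest library that stood apart from the other 3 by Dixon's ratio. For normally distributed values chance gives about 1 in 20. The ratio was taken on CPM without logs, and many of the genes were named for being called, so that rate is no background for the 17. Of these, 10 lay in the inhibitor group, 6 of them in replicate 4, and 7 in the Fgf10 group. In inhibitor replicate 4, Krt10 was at 6150 CPM beside 175 to 440, Lor at 6229 CPM beside 296 to 429, Apoe at 1127 CPM beside 486 to 581, Gas1 at 36.4 CPM beside 17.8 to 20.4 and Serpine2 at 3.77 CPM beside 1.15 to 1.20, while Id2 was low at 31.4 CPM beside 78.4 to 87.6. In other inhibitor libraries, Nedd9 was at 2.40 CPM in replicate 3, Hoxc8 at 34.3 CPM and Abca1 at 5.92 CPM in replicate 1, and H2-K1 at 235 CPM in replicate 2. In Fgf10 replicate 4, the library of male cells, Apoc1 was at 33.6 CPM beside 3.47 to 8.26, Sparc at 191 CPM beside 29.0 to 55.5, Emb at 82.1 CPM beside 20.4 to 27.7 and Smad7 at 1.94 CPM beside 6.95 to 7.08. The other Fgf10 libraries gave Axl at 25.3 CPM in replicate 3, Cyp26b1 at 66.7 CPM in replicate 2 and Trp63 at 65.5 CPM in replicate 1.

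Apoe and Id2 did not show in unpassaged organoids, with 1 library each, the direction they had in early ones, and this was not tested. Inhibitor minus Fgf10 was -552 CPM for Apoe and -1.52 CPM for Id2 before passaging, while every early inhibitor library was above every early Fgf10 library for both. Both unpassaged libraries carried Y-linked counts (249 with the inhibitor and 218 with Fgf10). Their Id2 levels were close and low, at 8.44 CPM with the inhibitor and 9.96 CPM with Fgf10, so no direction can be read for Id2. Unpassaged Id2 was at 31.3 CPM with the inhibitor alone and 39.1 CPM with forskolin alone.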

How the results depend on the processing

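The 218 calls became 676 with no filter on low counts, 343 with DESeq2, 143 when thinned to equal depth, 123 in the 8 compared libraries, 57 with all 18 passaged libraries, 99 within the source table that holds 10 of the 12 libraries, and 28 among libraries with Y-linked counts (added after seeing the data). Leaving out each library gave 91 (without inhibitor replicate 3) to 553 (without inhibitor replicate 4); it gave 116 without inhibitor replicate 2, 136 without Fgf10 replicate 1 and 124 without Fgf10 replicate 2. The other alternatives, apart from the replicate block given below, stayed within 1.5 times of 218. Every one of the 218 that could be tested kept its direction in each alternative. Fgf10 replicate 1 belongs to another source table than all the inhibitor libraries. Among the genes that lost their call within the larger source table were Id1, Apoc1, S100a4 and Hoxc8.

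With the replicate number as a block, 96 genes were called in the 8 libraries; the numbers share no stated origin and did not pair the samples.

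Of the 60 named genes called, 12 kept their call in all 20 alternatives (Tgfbi, Irx4, Tnfaip2, Olfr1033, Sostdc1, Moxd1, Lgals9, Sparc, Itgb5, Serpinh1, Emb and Col7a1) and none reversed. Leaving out 1 library ended 24 of the 60 calls in at least 1 case: 22 without inhibitor replicate 3, 19 without inhibitor replicate 2, 17, 14, 12 and 8 without Fgf10 replicates 2, 1, 3 and 4, 9 without inhibitor replicate 1 and 0 without inhibitor replicate 4. Causes of lost calls were not tested. Fewer libraries enter several of these fits, and the fit with Y-linked counts has 1 Fgf10 library, so a lost call there does not show that the media act alike. Genes under about 1 CPM in a group rest on a few counts.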

Other observations

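Chemokine and NF-kappaB genes outside the lists were also among the calls; they were picked after their values were seen. Cxcl3, a neutrophil chemokine, had 381, 198, 332 and 63.4 CPM with the inhibitor, against 78.5, 40.0, 55.6 and 11.6 CPM with Fgf10 (log2 fold change 2.38, adjusted p = 0.0322 in edgeR), which overlap through inhibitor replicate 4. Nfkb2, an NF-kappaB subunit, had 266, 193, 292 and 139 CPM with the inhibitor, against 76.7, 105, 87.8 and 111 CPM with Fgf10 (1.23, adjusted p = 0.0214), with no overlap. Tnf had 15.4, 17.2, 34.0 and 6.90 CPM with the inhibitor, against 2.95, 2.35, 4.96 and 1.94 CPM with Fgf10 (2.55, adjusted p = 0.0263). The cytokine-responsive factor Irf1 had 48.7 to 66.3 CPM with the inhibitor and 17.3 to 36.2 CPM with Fgf10 (1.15, adjusted p = 0.0334). None of these passed among libraries with Y-linked counts, at adjusted p = 0.166, 0.809, 0.586 and 0.583.

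Other called genes that the lists do not hold had very low levels on one side. Tmprss2, a membrane serine protease, had 24.9, 30.3, 30.0 and 19.5 CPM with the inhibitor, against 0, 0.785, 0.993 and 0.647 CPM with Fgf10, and passed among libraries with Y-linked counts too (adjusted p = 0.0207). Hoxb9 had 0, 0, 0.400 and 0 CPM with the inhibitor, against 31.9, 25.9, 23.8 and 7.76 CPM with Fgf10 (adjusted p = 0.000555), and missed the threshold among libraries with Y-linked counts (-5.17, adjusted p = 0.166). Its counts were 54, 33 and 48 in Fgf10 replicates 1 to 3, which carry Xist, and 12 in Fgf10 replicate 4, which carries Y-linked counts. The unpassaged forskolin library, which also carries Xist, had 32 counts of Hoxb9, the libraries with the inhibitor and no forskolin 3 and 16, and those with Fgf1 0 and 1. Among unpassaged and early libraries its highest counts lay in those that carry Xist, and source animal and medium cannot be told apart for it.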
